A study of Mus musculus with 6 samples.

Results

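Fragments of the nuclear tRNAs that carry glycine (tRNA-Gly) were followed in a pull-down of phosphorylated tau from mouse hippocampus. The members were the RNAs whose name holds Gly followed by an anticodon, with a fragment prefix and without the mitochondrial prefix: 23 of the 2380 RNAs named by the authors, and 23 of 766 fragments of nuclear tRNAs. By type they were 20 tRF5 fragments, 1 tRF3a, 1 5'tiRNA and 1 3'tiRNA. By anticodon 8 carried ACC, 6 CCC, 5 GCC and 4 TCC.

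The samples were 3 hippocampal samples of PS19 mice, transgenic for human P301S tau, a mutant form known from families with frontotemporal dementia, next to 3 of wild-type (WT) controls. After the frozen tissue had been homogenised and its RNA crosslinked to protein by UV light, RNA bound to protein was pulled down in every sample with an antibody to phosphorylated tau (pS396) on magnetic beads, a procedure called CLIP. The CLIP RNA, in red (Cy5), and the RNA left in the supernatant, in green (Cy3), were hybridised together on 1 small RNA array per sample. The labels give neither the age nor the number of animals per sample nor the promoter of the transgene. The p-values therefore refer to these samples only, with a spread that the fit pools over RNAs. No antibody control is among the samples, so binding to tau and carry-over cannot be told apart. No dyes were swapped, so within a genotype a dye effect of the probe and the split between CLIP and supernatant cannot be told apart. A dye effect common to all arrays cancels in differences between the genotypes.

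Transfer RNAs bring amino acids to the ribosome, and their anticodon reads the codon of the messenger RNA. When they are cut, the pieces can persist as small RNAs. A tRF5 starts at the 5' end of the mature tRNA and ends before the anticodon, a tRF3a is a short piece of the 3' end that carries the added CCA, and the 5'tiRNA and 3'tiRNA are what is left of its 5' and 3' side when a nuclease such as angiogenin cuts the anticodon loop, as happens under stress. Fragments from the 5' side of tRNA-Gly with the anticodon GCC are best known from mouse sperm, and in mouse brain tRNA fragments build up when the methyltransferase Nsun2, which protects tRNAs from cleavage, is missing.

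The first number in a fragment's name is read here as its length: 6 of the tRF5 members have 18, 6 have 20, 7 have 22 and 1 has 23. Names that differ only in this number, such as tRF5-18-GlyTCC-1, tRF5-20-GlyTCC-1, tRF5-22-GlyTCC-1 and tRF5-23-GlyTCC-1, describe nested pieces of the same 5' end, so their probes can bind the same RNA and the members are not independent of each other. RefSeq's gene table for the mouse assembly GRCm38.p6 lists 14 nuclear tRNA-Gly genes with the anticodon GCC, 7 with TCC, 6 with CCC and 1 with ACC. Fragment names with ACC were the most frequent among the members although that anticodon has the fewest genes in this table.

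All values below are log2 signals. The CLIP level and the supernatant level are the log2 signal minus the 75th percentile of the array in that channel, and the CLIP to supernatant ratio is centred on the median RNA of each array. Levels of different probes are not comparable, so only the same fragment is compared between arrays. Scan and genotype were largely confounded: 1 scan held PS19 1 and WT 2, a different one held PS19 2 with PS19 3, and WT 1 and WT 3 each had a scan to themselves. Outside the shared scan, scan and genotype cannot be told apart. Over 2238 RNAs, the lowest correlation of CLIP levels for arrays from the same scan was 0.953, and the highest for arrays from different scans was 0.822. On the CLIP channel 37.6% to 49.4% of probes were well above background on the PS19 arrays, against 10.6% on WT 1, 44.2% on WT 2 and 24.7% on WT 3, so the lowest shares were both of WT arrays. On the supernatant channel the shares were 35.5% to 63.2% on the PS19 arrays and 40.2% to 55.1% on the WT arrays. Precision is limited by the few arrays and by these detection shares.

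The tRNA-Gly fragments were measured in the pull-down and in the supernatant of both genotypes. In the CLIP channel 22, 22 and 23 of the 23 members were well above background on PS19 1, PS19 2 and PS19 3, against 4, 22 and 12 on WT 1, WT 2 and WT 3. In the supernatant channel it was 22, 21 and 22 members on the PS19 arrays, against 23, 22 and 20 on the WT arrays. The CLIP counts of WT 1 and WT 3 were thus low where all probes of those arrays were low. Every member was well above background on at least 1 WT array in each channel, so no member has only a bound. Over all 6 arrays 2 members reached this in the CLIP channel, tRF5-22-GlyTCC-1 and tRF5-23-GlyTCC-1, and 18 members in the supernatant channel.

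**Figure D1:**
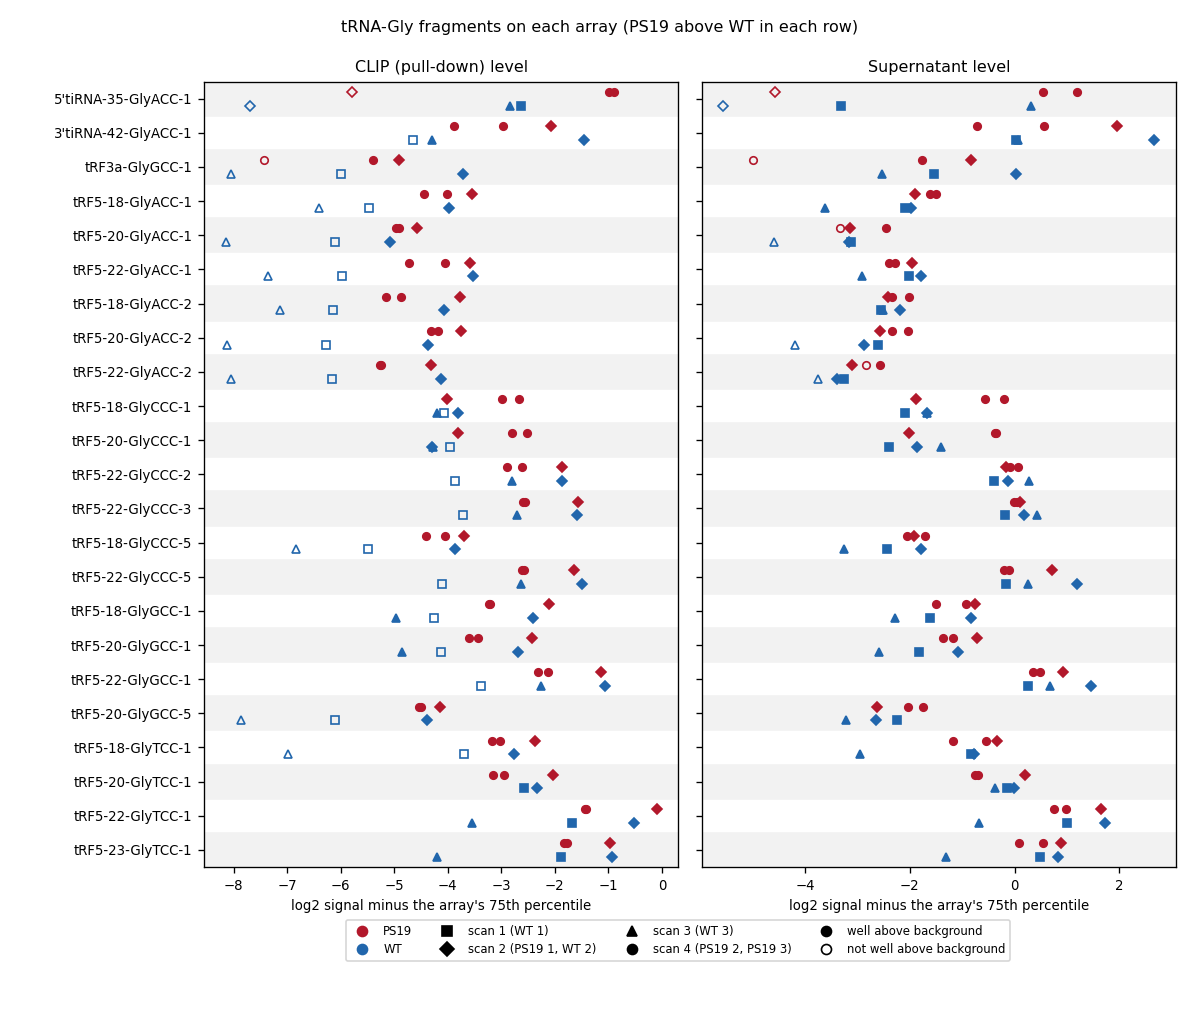
Log2 level of each of the 23 tRNA-Gly fragments in the CLIP channel (left) and the supernatant channel (right), with PS19 arrays in red above WT arrays in blue; the marker shape gives the scan, and open markers are not well above background. In the CLIP channel WT 1 and WT 3 lie lowest for most tRF5 fragments, while PS19 1 and WT 2, the arrays of the shared scan, lie close together for most fragments.

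The first comparison asked whether the amount of tRNA-Gly fragments recovered with tau was different in PS19 and WT hippocampus. No member passed. In limma 0 of 2356 RNAs (0.0%) reached an adjusted p under 0.05, and the lowest adjusted p of a member was 0.773. In this channel the fit gave each member with values on every array the same SE, 1.04. The p-values thus rank these members by the size of their difference and not by their own spread. At an unadjusted p under 0.05 in limma, 1 of the 23 members was higher and 0 were lower in PS19, against 1.91% and 0.255% of all RNAs. The median RNA itself differed by 0.85, and by -0.04 when scaled by the 75th percentile over all probes. The median CLIP level of the RNAs tested was -5.45 on WT 1 and -5.61 on WT 3. On WT 1 even tRF5-22-GlyGCC-1, at -3.38, did not clear background, so there the median RNA rests largely on signals near background. With this limit, differences are also given relative to the median RNA. By that measure the members had a median of 0.18, and 13 of the 23 exceeded it, as 50% of all RNAs do. The median was 0.41 without WT 1, 0.02 without WT 3, 0.02 without PS19 2, 0.05 without WT 2 and 0.08 without PS19 3.

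The member with the smallest p was tRF5-20-GlyACC-2, a piece of the 5' end. It had CLIP levels of -3.76, -4.19 and -4.31 on PS19 1 to PS19 3, against -6.28, -4.36 and -8.12 on WT 1 to WT 3. The groups did not overlap, but WT 2 lay only just below the lowest PS19 array, and the low values came from WT 1 and WT 3, where the probe was not well above background. The difference was 2.16 (SE 1.04, limma, unadjusted p = 0.0368, adjusted p = 0.773), or 1.32 relative to the median RNA. It was 0.60 inside the shared scan, 1.23 (0.76 relative to the median RNA) without WT 3, and -0.03 with normexp background correction. The authors' deposited table gives this fragment a log2 difference of 1.37 with p = 0.0144 and an adjusted p of 0.999.

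The tRF5 fragments with the anticodon ACC lay above the median RNA as a group. All 6 of them exceeded the median RNA, with a median of 0.54 relative to it, against -0.21 for the 6 tRF5 members with CCC, 0.03 for the 4 with GCC and 0.03 for the 4 with TCC. Of the 391 other nuclear tRF5 fragments 285 exceeded the median RNA as well. The anticodon groups were not tested against each other. As a tRF5 ends before the anticodon, the groups differ by name, and whether their probes bind the same RNA was not tested. For tRF5-20-GlyACC-1 the CLIP levels were -4.57, -4.92 and -4.97 on the PS19 arrays, against -6.10, -5.07 and -8.15 on the WT arrays, and for tRF5-18-GlyACC-1 they were -3.55, -4.45 and -4.02, against -5.47, -3.98 and -6.41. The first of these pairs of groups did not overlap and the second did. The 6 ACC members were not well above background on WT 1 or WT 3, and inside the shared scan their median relative to the median RNA was 0.24.

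The tRF5 members were also grouped by the length in their name, and the lengths were not tested against each other. Those with 18 had a median CLIP difference of 0.38 relative to the median RNA, with 5 of 6 above it, those with 20 had 0.53, with 4 of 6 above it, and those with 22 had -0.38, with 3 of 7 above it. Inside the shared scan these medians were 0.17, 0.27 and -0.18. Detection differed by length: on WT 3 the members with 22 cleared background, except those with ACC. Of the shorter ones, those with ACC, tRF5-20-GlyGCC-5, tRF5-18-GlyCCC-5 and tRF5-18-GlyTCC-1 did not clear it on WT 1 or WT 3. The part of signals near background in these medians was not tested. The 3 longer ones above the median RNA were tRF5-22-GlyACC-1 at 0.65, tRF5-22-GlyACC-2 at 0.32 and tRF5-22-GlyTCC-1 at 0.09 relative to it. Among those below it, tRF5-22-GlyGCC-1 had CLIP levels of -1.14, -2.13 and -2.31 on the PS19 arrays, against -3.38, -1.06 and -2.26 on the WT arrays. Its groups overlapped, and its difference of 0.37 (SE 1.04, limma adjusted p = 0.843) was -0.48 relative to the median RNA. The related tRF5-22-GlyCCC-3 and tRF5-22-GlyCCC-5 differed by 0.44 and 0.47, or by -0.41 and -0.38 relative to the median RNA. Of the shorter fragments named GlyGCC-1, tRF5-20-GlyGCC-1 differed by 0.73 (-0.12 relative to the median RNA) and tRF5-18-GlyGCC-1 by 1.03 (0.18 relative to it).

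The groups of CLIP levels did not overlap for 3 of the 22 members with values on all 6 arrays, each higher in PS19, against 4.42% of 2238 RNAs. They were tRF5-20-GlyACC-2, tRF5-20-GlyACC-1 and tRF5-20-GlyCCC-1. The last of these had -3.80, -2.52 and -2.80 on the PS19 arrays, against -3.95, -4.30 and -4.27 on the WT arrays. PS19 2 and PS19 3, which shared a scan, were the high ones, and PS19 1 lay just above WT 1. Its difference of 1.13 (SE 1.04, limma adjusted p = 0.773) was 0.28 relative to the median RNA. A similar pattern, with overlap, appeared in tRF5-18-GlyCCC-1, which had -4.01, -2.67 and -2.98 on the PS19 arrays, against -4.07, -3.80 and -4.20 on the WT arrays.

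Among the 4 tRF5 members with the anticodon TCC were the 2 members well above background in the CLIP channel of all 6 arrays. The fragment tRF5-22-GlyTCC-1 had CLIP levels of -0.10, -1.41 and -1.43 on the PS19 arrays, against -1.68, -0.52 and -3.54 on the WT arrays. The groups overlapped, with PS19 1 and WT 2 highest and WT 3 lowest, and the difference of 0.94 (SE 1.04, limma adjusted p = 0.773) was 0.09 relative to the median RNA. The fragment tRF5-23-GlyTCC-1 differed by 0.82 and by -0.02 relative to the median RNA. The only member with a negative CLIP difference was tRF5-20-GlyTCC-1, at -0.25 (SE 1.16, limma adjusted p = 0.896), with no value on WT 3, whose spot was an outlier. It was 0.34 with no scaling and 0.29 with the scan as a random block.

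The anticodon-loop product 5'tiRNA-35-GlyACC-1 had the largest spread among arrays. Its CLIP level was -5.78, -0.89 and -0.99 on PS19 1 to PS19 3, against -2.64, -7.70 and -2.84 on WT 1 to WT 3. It was not well above background on PS19 1 and WT 2, the arrays of the shared scan, and well above it on the 4 others, so the lowest value of each genotype came from that scan. The difference was 1.84 (SE 1.04, limma adjusted p = 0.773), or 0.99 relative to the median RNA. With the scan as a random block in limma it was 1.89 and passed (adjusted p = 0.0199), as 1 of 18 RNAs that passed in that fit. With the scan as a fixed block in limma it was 1.92 and did not pass (adjusted p = 0.9998), and 0 of 2238 RNAs did; that value is PS19 1 minus WT 2, both not well above background. Without WT 2 the difference was 0.19, or -1.34 relative to the median RNA. The SE of 1.04 is pooled over RNAs, while the SDs of this fragment were 2.8 in PS19 and 2.86 in WT. Scaled by the 75th percentile over all probes its difference was 0.94 (limma unadjusted p = 0.708). The authors' deposited table gives it a log2 difference of 1.04 with p = 0.766 and an adjusted p of 0.999.

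The fragments from the 3' side did not follow this 5'tiRNA. The fragment 3'tiRNA-42-GlyACC-1, which reaches from the anticodon loop to the 3' end, had CLIP levels of -2.07, -3.89 and -2.96 on the PS19 arrays, against -4.64, -1.45 and -4.30 on the WT arrays. The highest value of each genotype came from the shared scan, and the groups overlapped. The difference was 0.49 (SE 1.04, limma adjusted p = 0.817), or -0.36 relative to the median RNA. The 3' piece tRF3a-GlyGCC-1 had -4.92, -7.43 and -5.40 on the PS19 arrays, against -6.0, -3.71 and -8.05 on the WT arrays. It was well above background on PS19 1, PS19 3 and WT 2, and its difference was 0.00 (SE 1.04, limma adjusted p = 0.998), or -0.85 relative to the median RNA.

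**Figure D2:**
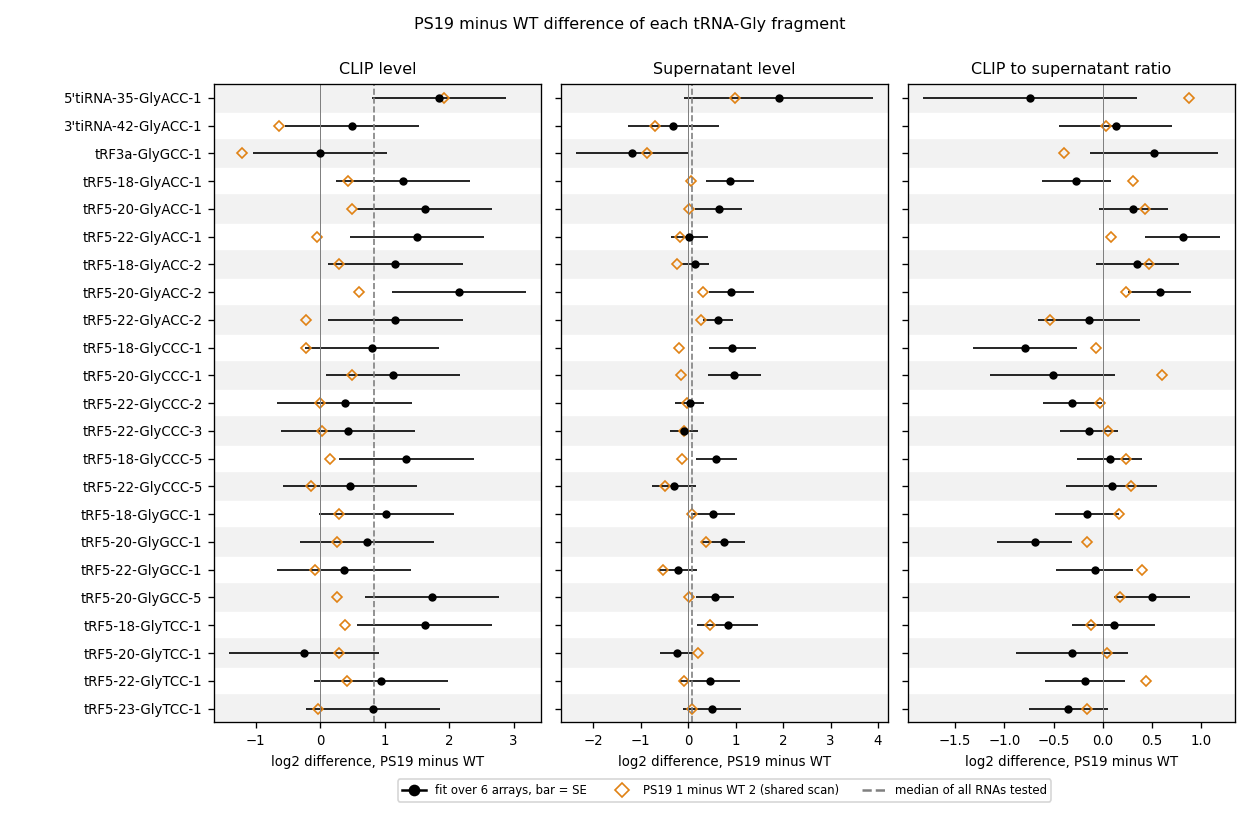
PS19 minus WT difference of each of the 23 tRNA-Gly fragments on the log2 scale in the CLIP level, the supernatant level and the CLIP to supernatant ratio; black points are the fit over 6 arrays with its SE, open diamonds are PS19 1 minus WT 2 inside the shared scan, and dashed lines mark the median of all RNAs tested. In the CLIP level most points lie near the dashed line at 0.85, and the diamonds of all tRF5 fragments lie between -0.22 and 0.60.

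Other RNAs of glycine tRNAs and other tRNA fragments give the setting of these values. The 743 other fragments of nuclear tRNAs, of which 742 were tested, had the same median CLIP difference relative to the median RNA, 0.18, with 475 of 742 above it. The 391 other tRF5 fragments had 0.31, and the 20 tRF5 members 0.23. The 39 fragments of tRNA-Glu had 0.09 and the 15 of tRNA-Asp 0.35. The full-length tRNA Gly-CCC-5 had CLIP levels of -1.39, -1.26 and -1.52 on the PS19 arrays, against 0.80, -1.50 and -1.12 on the WT arrays, and a difference of -0.78 (limma adjusted p = 0.773). WT 1 alone was high for it. The full-length tRNA Gly-GCC-6, with no value on WT 1, differed by -0.08 (limma adjusted p = 0.966).

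In the authors' deposited table, which was computed from red channel values scaled by spike-ins, 2 of the 23 members had an unadjusted p under 0.05 in the higher direction and 0 in the lower one. The shares over its 2380 RNAs were 2.35% and 0.042%. The members were tRF5-20-GlyACC-2 and tRF5-20-GlyGCC-5, the second with a log2 difference of 0.94 and p = 0.0496 in the authors' deposited table. A difference above 0 in the authors' deposited table was given to 15 of the 23 members, against 52.7% of all its RNAs. The CLIP levels of tRF5-20-GlyGCC-5 were -4.14, -4.53 and -4.50 on the PS19 arrays, against -6.10, -4.39 and -7.87 on the WT arrays. Here again WT 2 lay among the PS19 arrays, and WT 1 and WT 3, not well above background, lay below them.

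Marker microRNAs of the cell types in hippocampal tissue moved with the same arrays. Of 9 microRNAs listed for hippocampal neurons 5 are named on the array, among them mmu-miR-124-3p, mmu-miR-9-5p and mmu-miR-138-5p, and their summed CLIP level was -2.23 to -1.58 on the PS19 arrays, against -2.58 to -2.03 on the WT arrays. Of 13 listed for choroid plexus and epithelium 7 are named, with -1.86 to -1.16 on the PS19 arrays, against -3.44 to -1.30 on the WT arrays, and the 2 of 4 named for oligodendrocytes had -3.91 to -3.14, against -6.24 to -3.28. For blood 1 of 8 is named, mmu-miR-144-5p, with -3.79 to -2.84, against -7.93 to -3.11, and for microglia 1 of 4, mmu-miR-155-5p, with -2.44 to -1.88, against -4.85 to -2.03. Each named marker was well above background on at least 1 array. In the CLIP channel of WT 1 this held for 1 of the 5 neuronal markers. It held there for 0 of the 7 of choroid plexus and epithelium and 0 of the 2 of oligodendrocytes. On WT 3 it held for 3, 3 and 1 of them. The blood marker mmu-miR-144-5p cleared background on neither WT 1 nor WT 3, while mmu-miR-155-5p did on all 6 arrays. Low WT values of these lists thus rest partly on signals near background. The part of these cell types in the CLIP values of tRNA-Gly fragments was not tested, and in bulk tissue fewer cells of a type and less RNA per cell cannot be told apart.

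The supernatant level asked whether the unbound pool of tRNA-Gly fragments differed between the genotypes. No member passed. In limma 0 of 3727 RNAs (0.0%) reached an adjusted p under 0.05, and the lowest of a member was 0.928. At an unadjusted p under 0.05 in limma 0 of the 23 members were called in either direction, against 1.74% of all RNAs higher and 1.05% lower in PS19. The members had a median difference of 0.52, or 0.42 relative to the median RNA, and 15 of 23 exceeded it, as 50% of all RNAs do. Inside the shared scan the median relative to the median RNA was -0.10, and without WT 3 it was 0.17.

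By the length in their name the tRF5 members were not tested against each other in this difference either. Those with 18 in the name had a median of 0.62 relative to the median RNA, with 6 of 6 above it, those with 20 had 0.60, with 5 of 6 above it, and those with 22 had -0.07, with 2 of 7 above it. Inside the shared scan these medians were -0.11, 0.04 and -0.15. The fragment with the smallest p was tRF5-22-GlyACC-2, with supernatant levels of -3.11, -2.83 and -2.57 on the PS19 arrays, against -3.26, -3.39 and -3.76 on the WT arrays. Its groups did not overlap, it was not well above background on PS19 2 and WT 3, and the difference was 0.63 (SE 0.31, limma adjusted p = 0.928). For tRF5-18-GlyACC-1 the levels were -1.90, -1.61 and -1.50 on the PS19 arrays, against -2.09, -1.97 and -3.62 on the WT arrays. WT 3 was low and the others lay close together, with a difference of 0.88 (SE 0.50, limma adjusted p = 0.928) over 6 arrays and 0.06 inside the shared scan.

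The groups did not overlap for 3 of the 23 members, each higher in PS19, against 7.42% of 3668 RNAs, and for 0 in the lower direction, against 2.43%. These were the fragments just given and tRF5-20-GlyACC-2, which had supernatant levels of -2.57, -2.04 and -2.35 on the PS19 arrays, against -2.61, -2.87 and -4.20 on the WT arrays. For tRF5-20-GlyACC-2 the values of PS19 1 and WT 1 nearly met, and WT 3, its lowest array, was not well above background. All 3 fragments carry the anticodon ACC. The pair tRF5-18-GlyCCC-1 and tRF5-20-GlyCCC-1 was high on the scan of PS19 2 and PS19 3. The first had -1.88, -0.57 and -0.21 on the PS19 arrays, against -2.09, -1.68 and -1.67 on the WT arrays, and the second -2.02, -0.37 and -0.36, against -2.40, -1.87 and -1.40. Their differences of 0.93 and 0.97 (limma adjusted p = 0.928 each) were -0.20 and -0.15 inside the shared scan.

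The longer fragments went both ways, and both 3' pieces had differences below 0. Of the 8 tRF5 members above 20 in the name 5 had supernatant differences above 0, among them tRF5-22-GlyACC-2 given above, tRF5-23-GlyTCC-1 at 0.50 and tRF5-22-GlyTCC-1 at 0.45. The fragment tRF5-22-GlyCCC-3 had supernatant levels of 0.11, 0.05 and -0.02 on the PS19 arrays, against -0.19, 0.18 and 0.42 on the WT arrays. It was among the steadiest members, with SDs of 0.06 in PS19 and 0.31 in WT and a difference of -0.09 (SE 0.29, limma adjusted p = 0.959). The fragment tRF5-22-GlyGCC-1 differed by -0.22 and tRF5-22-GlyCCC-5 by -0.30, and without WT 2 these were 0.12 and 0.09. The fragment 3'tiRNA-42-GlyACC-1 differed by -0.32 (SE 0.96, limma adjusted p = 0.958). For tRF3a-GlyGCC-1 the supernatant levels were -0.84, -4.99 and -1.76 on the PS19 arrays, against -1.53, 0.03 and -2.54 on the WT arrays. PS19 2, not well above background, set its difference of -1.19 (SE 1.18, limma adjusted p = 0.928), which was 0.04 without it.

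The scan of the arrays separated several fragments more widely than genotype did. The fragment 5'tiRNA-35-GlyACC-1 had supernatant levels of -4.58, 0.54 and 1.19 on the PS19 arrays, against -3.32, -5.56 and 0.31 on the WT arrays. As in the CLIP channel, it was not well above background on PS19 1 and WT 2 and well above it on the 4 others, and the mean of the shared scan minus the mean of the other 4 was -4.90 in the CLIP channel and -4.75 in the supernatant. It was the only member for which both arrays of the shared scan lay below the 4 others, in both channels, against 10% of all RNAs in the supernatant and 2.95% in the CLIP channel. Its PS19 minus WT difference in the supernatant was 1.91 (SE 1.99, limma adjusted p = 0.928).

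The fragments from the 3' side ran the opposite way across scans. The supernatant levels of 3'tiRNA-42-GlyACC-1 were 1.96, -0.72 and 0.56 on the PS19 arrays, against 0.02, 2.67 and 0.06 on the WT arrays, so that PS19 1 and WT 2 were the highest of their groups. The mean of the shared scan exceeded that of the other 4 arrays by 2.33 for this fragment and by 2.30 for tRF3a-GlyGCC-1. Fragments of the mitochondrial tRNA-Gly, which is read from the mitochondrial genome and is no member, ran likewise. Among them mt-3'tiRNA-39-GlyTCC had supernatant levels of 3.14, -0.41 and 1.13 on the PS19 arrays, against 0.73, 3.66 and 0.60 on the WT arrays, and the shared scan exceeded the others by 2.89. For mt-tRF3b-GlyTCC this excess was 2.88 and for mt-tRF3a-GlyTCC 2.07.

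In the supernatant 10 of the 23 members were higher on both arrays of the shared scan than on each of the 4 others, against 14.9% of 3668 RNAs. Besides the 3'-derived pieces they were tRF5 fragments, with smaller shifts, such as 1.17 for tRF5-22-GlyTCC-1 and 0.75 for tRF5-22-GlyGCC-1. In the CLIP channel 17 of 22 members were, against 70.4% of 2238 RNAs, so there the members followed the arrays as a whole. In the supernatant the full-length tRNA Gly-CCC-5 went the other way, with 0.77, 1.15 and 1.14 on the PS19 arrays, against 3.60, 0.72 and 1.57 on the WT arrays. Its mean on the shared scan minus that of the other 4 arrays was -1.12. Because the arrays of a scan also share whatever else was done together, scan and handling cannot be told apart. In the ratio 1 of 22 members, tRF5-20-GlyGCC-5, was higher on both arrays of the shared scan than on each of the others, against 8.51% of 3842 RNAs, and 8 were lower, against 12.5%.

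**Figure D3:**
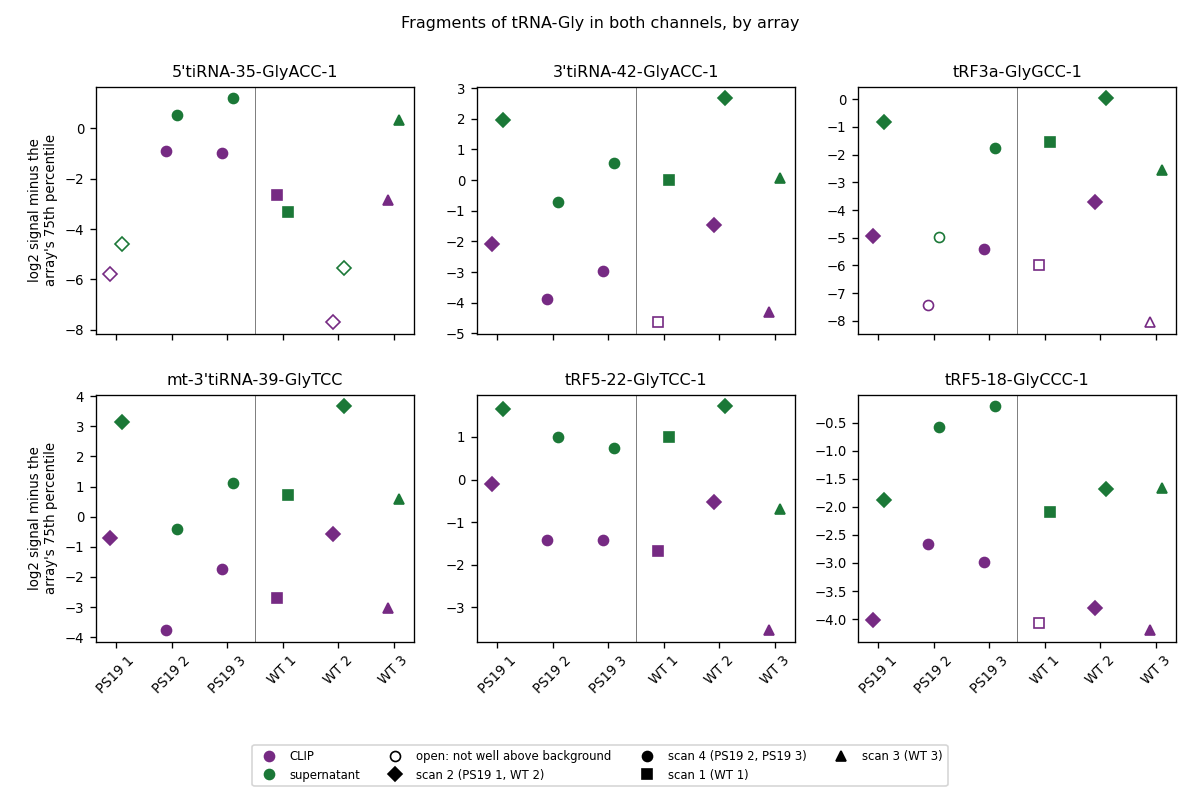
Log2 levels of fragments of nuclear and mitochondrial tRNA-Gly in the CLIP channel (purple) and the supernatant channel (green) by array, PS19 left of WT. Marker shapes give the scan and open markers are not well above background. The fragment tRF5-22-GlyTCC-1, well above background in the CLIP channel of every array, is higher on PS19 1 and WT 2 than on the other arrays in both channels. For tRF5-18-GlyCCC-1, highest on PS19 2 and PS19 3, the shared scan overlaps the other arrays. The fragment 5'tiRNA-35-GlyACC-1 is lowest on PS19 1 and WT 2, the arrays on which 3'tiRNA-42-GlyACC-1 and mt-3'tiRNA-39-GlyTCC are highest.

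The ratio of CLIP to supernatant signal asked the same question with each sample's own unbound pool as the yardstick. No member passed. In limma 0 of 3971 RNAs (0.0%) reached an adjusted p under 0.05, and each member with a value had an adjusted p of 0.992. At an unadjusted p under 0.05 in limma 0 of the 23 members were called, against 2.09% of all RNAs higher and 2.06% lower. The members had a median difference of -0.14, with 10 above 0 and 13 below. The sign of this median turned with several settings: it was 0.11 without WT 1, 0.16 inside the shared scan, 0.24 with normexp background correction, 0.15 centred on all probes and 0.084 with no centring.

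The anticodon groups were not tested against each other in the ratio. The 6 tRF5 members with ACC had a median ratio difference of 0.33, against -0.23 for CCC, -0.12 for GCC and -0.24 for TCC. The fragment with the smallest p was tRF5-22-GlyACC-1, with ratios of -0.02, 0.66 and 0.01 on the PS19 arrays, against -0.59, -0.09 and -1.08 on the WT arrays. Its groups did not overlap, but PS19 1 and WT 2 lay close together, and the difference of 0.81 (SE 0.38, limma unadjusted p = 0.0708, adjusted p = 0.992) was 0.08 inside the shared scan. On WT 1 and WT 3 the red signal behind its ratios did not clear background, and the same holds for the next fragment, so both separations rest on ratios with an undetected CLIP signal. The fragment tRF5-20-GlyACC-2 had 0.41, 0.29 and 0.38 on the PS19 arrays, against -0.28, 0.17 and -0.56 on the WT arrays, and a difference of 0.58 (SE 0.32, limma adjusted p = 0.992).

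Groups that did not overlap were found for 2 of the 22 members in the higher direction, the fragments just given, against 4.19% of 3842 RNAs. In the lower direction it was 1 of 22, against 4.5%. This was tRF5-22-GlyCCC-2, with ratios of -0.10, -0.24 and -0.47 on the PS19 arrays, against -0.08, -0.07 and 0.28 on the WT arrays. The highest PS19 value and the lowest WT value nearly met, and the difference was -0.31 (SE 0.30, limma adjusted p = 0.992). Among members with differences below 0, tRF5-18-GlyCCC-1 had -0.79 (SE 0.53) and tRF5-20-GlyGCC-1 -0.69 (SE 0.38), and both turned to 0.14 and 0.24 with normexp background correction.

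Within each genotype the ratio set the pull-down signal of tRNA-Gly fragments against the supernatant signal, relative to the median RNA. CLIP RNA was always in red, so a dye effect of the probe does not cancel in these ratios. It cannot be told apart from a split between pull-down and supernatant. No member passed in either genotype, where 4 of 3971 RNAs (0.101%) passed in PS19 and 3 (0.0755%) in WT. The members had a median of -0.05 in PS19, with 10 above 0 and 13 below, and of -0.01 in WT, with 11 above and 12 below. The 20 tRF5 members spanned only -0.32 to 0.36 in PS19 and -0.62 to 0.74 in WT. At an unadjusted p under 0.05 in limma the ratio of 2 members was lower in PS19, against 3.83% of all RNAs, and 0 were higher, against 3.1%. In WT 2 were lower, against 3.63%, and 1 was higher, against 4.36%.

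The members with a lower ratio were the fragments from the 3' side, in both genotypes. The fragment 3'tiRNA-42-GlyACC-1 had ratios of -2.42, -0.73 and -1.19 on the PS19 arrays and -1.28, -2.46 and -1.01 on the WT arrays. All 6 values lay below 0, though on WT 1 the pull-down signal behind them did not clear background, with means of -1.45 (SE 0.40, limma unadjusted p = 0.00787, adjusted p = 0.517) in PS19 and -1.58 (SE 0.40, limma unadjusted p = 0.00499, adjusted p = 0.495) in WT. The 3' piece tRF3a-GlyGCC-1 had -2.48, 0.00 and -1.30 on the PS19 arrays and -1.09, -2.09 and -2.16 on the WT arrays. On PS19 2, where neither channel was well above background, it stood at 0.00, and the means were -1.26 (SE 0.46, limma adjusted p = 0.615) in PS19 and -1.78 (SE 0.46, limma adjusted p = 0.519) in WT. On WT 1 and WT 3 the red channel alone did not clear background, so the WT mean rests on 1 ratio detected in both channels and 2 that were not. Both fragments were lowest in PS19 on PS19 1, and without that array the PS19 means were -0.96 and -0.65.

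Other fragments from the 3' side of tRNAs lay below 0 as well, by less. These fragments were grouped after the values above were seen, so they are given as a description. The 128 other nuclear 3'tiRNA and tRF3 fragments tested had a median ratio of -0.19 in PS19, with 99 of 128 below 0, against 2073 of all 3971 RNAs. In WT it was -0.32, with 101 of 128 below 0, against 2066 of 3971. Low ratios were not particular to the 3' side: the 39 fragments of tRNA-Glu, of any type, had medians of -0.20 in PS19 and -0.43 in WT. The 15 of tRNA-Asp had 0.11 and 0.27. The 3 mitochondrial tRNA-Gly fragments, also from the 3' side, had means of -1.24 for mt-3'tiRNA-39-GlyTCC, -1.01 for mt-tRF3b-GlyTCC and -0.81 for mt-tRF3a-GlyTCC in PS19 and of -0.97, -1.03 and -0.71 in WT. They were lowest on PS19 1, at -2.26, -2.29 and -1.90, and on WT 2, at -2.58, -2.56 and -2.47. On the 4 other arrays they lay between -0.92 and 0.25. The full-length tRNA Gly-CCC-5 had a mean of -0.28 in PS19 and 0.23 in WT.

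On the higher side, tRF5-20-GlyGCC-1 had ratios of -0.11, 0.18 and 0.09 on the PS19 arrays, against 1.08, 0.05 and 1.08 on the WT arrays. Only WT 1, whose red signal for it did not clear background, and WT 3 were high, and the WT mean of 0.74 (SE 0.27, limma unadjusted p = 0.0273, adjusted p = 0.587) stood at -0.12 with normexp background correction. The fragment tRF5-18-GlyGCC-1, nested in it by name, was above 0 on all 6 arrays, with 0.24, 0.16 and 0.61 in PS19 and 0.72, 0.08 and 0.68 in WT. Its means were 0.33 (SE 0.23, limma adjusted p = 0.809) in PS19 and 0.49 (SE 0.23, limma adjusted p = 0.620) in WT. It turned to -0.12 in WT with normexp background correction.

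The fragment 5'tiRNA-35-GlyACC-1 had ratios of 0.40, 1.01 and 0.16 on the PS19 arrays, against 4.06, -0.48 and 0.20 on the WT arrays. WT 1 stood far above all other arrays. The mean was 0.52 (SE 0.77, limma adjusted p = 0.916) in PS19 and 1.26 (SE 0.77, limma adjusted p = 0.649) in WT, and without WT 1 the WT mean was -0.14. On WT 1 the probe was well above background in both channels, at a CLIP level of -2.64 and a supernatant level of -3.32. However, only 10.6% of all red probes cleared background on WT 1. The median RNA on which its ratios are centred thus rests largely on red signals near background, and the part of this in the 4.06 was not tested. A raised ratio on WT 1 was also seen, at 1.83 and 1.39, in tRF5-20-GlyCCC-1 and tRF5-18-GlyCCC-1, neither of them well above background in the CLIP channel there.

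**Figure D4:**
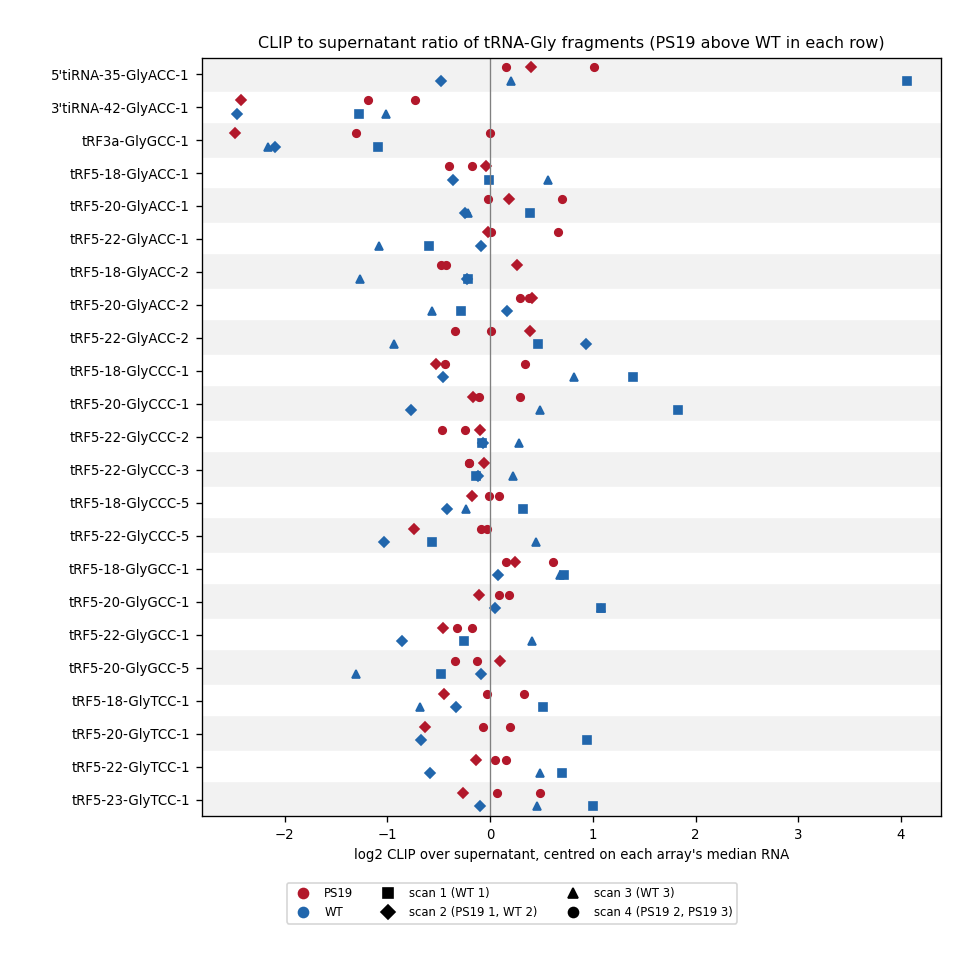
Log2 ratio of CLIP over supernatant signal of each of the 23 tRNA-Gly fragments, centred on the median RNA of each array, with PS19 arrays in red above WT arrays in blue and the scan given by the marker shape. The 3' fragments 3'tiRNA-42-GlyACC-1 and tRF3a-GlyGCC-1 lie at or below 0 on all arrays, the tRF5 fragments scatter around 0, and 5'tiRNA-35-GlyACC-1 on WT 1 stands alone at 4.06.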

How the data were processed

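Labels were taken from the submitters: 6 arrays, 3 per genotype, with CLIP RNA in Cy5 and supernatant RNA in Cy3. Per the file headers, Agilent Feature Extraction 11.0.1.1 made the intensity values, which it had corrected for background and dye on each array. Compared with these, the deposited value table holds log2 red signals minus 1 offset per array. For 2380 RNAs the authors' deposited table lists the log2 fold change and the p-value, raw and adjusted. A name was given to the probe whose recomputed fold change (tolerance 1e-09) and p (tolerance 1e-07) equal the listed ones, and each of the 23 members matched 1 probe. The headers name build mm9, and no coordinates are printed.

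Log2 processed signals were averaged per RNA, and spots flagged as outliers had no value. Levels were scaled, array by array, by the 75th percentile of the RNAs that cleared background on every array, 550 in red and 1703 in green, and ratios were centred on the median of the RNAs tested, with no loess. An RNA was tested if well above background on at least 3 arrays (for the ratio, counting whichever channel reached this). The test was limma 3.58.1 under R 4.3.3, with lmFit, eBayes and Benjamini-Hochberg adjustment over all RNAs, and 0.05 as the threshold. The SE pools the spread over RNAs. Scans were read from the headers and tried as fixed and random blocks. Other alternatives covered scaling, centring, normexp background correction (offset 50, on median signals), filters, a variance trend, the replicate number as a block, the authors' values and left-out arrays. Simulated data, with noise independent between arrays and no scan effect, were used to test the fits. They do not bear on the confounding of scan and genotype. Named fragments follow a rule: the 2 most often detected per type and anticodon, and the 4 with the smallest p per direction in each comparison. The rule also takes full-length and mitochondrial tRNA-Gly RNAs, and the 3 named RNAs outside the members most like the 5'tiRNA. Other members are named as examples chosen after their values were seen. The members, lists and tests were chosen with earlier results of these data known.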

Additional observations from a re-analysis of the deposited data

How the results depend on the processing

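Each pair of a result and an alternative setting was counted once. In 123 pairs the number of RNAs passing stayed similar or the median over members moved by less than the spread between replicates. In 21 pairs these summary results moved by more. A median counted as unmoved could still turn its sign. Single fragments kept their direction and their side of the threshold in 479 pairs, turned in 30 and passed only in the alternative in 1. The number of RNAs passing in the CLIP level, 0, was 5 with normexp background correction and 18 with the scan as a random block, and 0 to 1 when each array was left out. In the random block fit 5'tiRNA-35-GlyACC-1 passed (1.89), but with the scan as a fixed block it did not (1.92, limma adjusted p = 0.9998) and 0 RNAs passed. For the ratio within PS19, 4 RNAs passed, against 0 with normexp, 0 with the filter on all 6 arrays, 0 with a variance trend, 2 with the scan as a random block and 2 to 5 over left-out arrays. Within WT, 3 passed, against 0 with the filter on all 6 arrays, 0 with a variance trend and 0 to 3 over left-out arrays. The median over tRNA-Gly fragments of the supernatant difference, 0.42 relative to all RNAs, was -0.019 with normexp and -0.10 with the scan as a fixed block. That of the ratio difference, -0.14, was 0.15 centred on all probes (an alternative added after seeing the data), 0.084 with no centring, 0.24 with normexp and 0.17 with the scan as a fixed block. That of the ratio within PS19, -0.05, was 0.034 with normexp, -0.14 with the filter on all 6 arrays, and -0.094 to 0.038 over left-out arrays. The cause was not tested.

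Single fragments turned, with no call in any of these settings. With normexp the CLIP differences were -0.035 for tRF5-20-GlyACC-2, -0.10 for tRF5-20-GlyGCC-5 and -0.14 for tRF5-20-GlyACC-1. The supernatant differences were 0.11 for tRF3a-GlyGCC-1 and 0.048 for tRF5-20-GlyTCC-1. The ratio differences were -0.0041 for tRF5-20-GlyACC-2, -0.076 for tRF5-20-GlyACC-1, 0.24 for tRF5-20-GlyGCC-1, 0.14 for tRF5-18-GlyCCC-1, 0.52 for tRF5-22-GlyCCC-2 and 0.64 for tRF5-23-GlyTCC-1. The ratios within PS19 were -0.026 for tRF5-20-GlyACC-1 and 0.0075 for tRF5-22-GlyCCC-2, and those within WT -0.12 for tRF5-20-GlyGCC-1, -0.12 for tRF5-18-GlyGCC-1, -0.12 for 5'tiRNA-35-GlyACC-1 and -0.48 for tRF5-23-GlyTCC-1. With no scaling the CLIP difference of tRF5-20-GlyTCC-1 was 0.34, and the supernatant differences were 0.53 for tRF5-20-GlyTCC-1, 0.48 for tRF5-22-GlyCCC-5 and 0.55 for tRF5-22-GlyGCC-1. With the scan as a random block tRF5-20-GlyTCC-1 had 0.29 in the CLIP level and 0.037 in the supernatant, and with a fixed block 0.21 in the supernatant, where tRF5-18-GlyCCC-1 had -0.20. Over left-out arrays the supernatant difference ranged from -0.59 to 0.086 for tRF5-22-GlyCCC-5 and from -0.49 to 0.12 for tRF5-22-GlyGCC-1, both above 0 without WT 2, and from -2.03 to 0.045 for tRF3a-GlyGCC-1, above 0 without PS19 2. The ratio of 5'tiRNA-35-GlyACC-1 within WT ranged from -0.14, without WT 1, to 2.13, and that of tRF5-22-GlyACC-1 within PS19 was -0.0021 without PS19 2.

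The replicate numbers are shared between the genotypes, but the labels do not say whether they pair the samples. Deviations of same-numbered arrays correlated by -0.0752, -0.515 and 0.315 in the CLIP level and by 0.141, -0.431 and 0.464 in the supernatant level. With 3 arrays per genotype, and with PS19 1 and WT 2 on 1 scan, these values cannot decide whether the numbers pair the samples. With the replicate block 0 RNAs passed in each of the 3 differences, and the medians over tRNA-Gly fragments were 0.21 in the CLIP level and 0.42 in the supernatant, relative to all RNAs, and -0.11 in the ratio. Depth of signal limits the CLIP values of WT 1, where 4 of 23 members were well above background.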

Other observations

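Named RNAs outside the members, with values on the 6 arrays, were ranked by likeness to 5'tiRNA-35-GlyACC-1. Unnamed probes and the other members were left out of this ranking. The 3 whose centred CLIP to supernatant ratio ran most like its own were themselves 5'tiRNAs, of other tRNAs. Over 6 arrays, Pearson's r was 0.992 for 5'tiRNA-34-AlaAGC-1, 0.990 for 5'tiRNA-35-AsnGTT-5 and 0.984 for 5'tiRNA-34-PheGAA-1. In the supernatant level the most alike of these named RNAs was 5'tiRNA-33-AlaAGC-1 (r = 0.989), followed by mmu-miR-369-5p and mmu-miR-495-5p. In the CLIP level it was mmu-miR-6403 (r = 0.979), followed by 5'tiRNA-34-AlaAGC-1 and mmu-miR-6936-3p. The arrays share scans, and WT 1 alone was far out in the ratio, so these values describe the 6 arrays and carry no test.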
